A study of Mus musculus with 7 samples.

Results

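The genes described here encode the nuclear-encoded subunits of the mitochondrial respiratory chain and of ATP synthase. They were taken by name, as protein-coding genes whose symbol starts with Nduf, Sdha to Sdhd, Uqcr, Cox4 to Cox8 or Atp5, and the rule uses no measured value. The rule found 97 of the 49671 genes in the count table. Of the 97 members, 36 encode subunits of complex I, 4 of complex II, 8 of complex III, 19 of complex IV and 16 of complex V. The other 14 match the rule by name but encode assembly factors (Ndufaf1 to Ndufaf8 and Sdhaf1 to Sdhaf4) or related proteins (Cox7a2l and Atp5s), and they were kept apart from the subunits. Ndufa4, first described as a complex I protein and now placed in complex IV, was counted with complex IV together with its paralog Ndufa4l2. Cox7b2 and Cox8c, which are testis isoforms, had 0 counts in all 7 libraries, and 3 counts, the limit that a count of 0 allows, would equal 0.128 to 0.189 CPM (read counts scaled to a common library size, with TMM factors). The other 95 members passed the filter on low counts, and the lowest of them, Cox4i2, still averaged 3.19 CPM in controls and 3.01 CPM after injury.

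The libraries were made from whole crushed femurs of wild-type mice. The TBI group holds 4 libraries from femurs taken 3 days after a traumatic brain injury (TBI), made by controlled cortical impact, where a driven piston hits the bared brain surface. The control group holds 3 libraries from uninjured mice, and because the labels do not say whether their skulls were opened, the surgery and the impact cannot be told apart. The sources used here give no age, and the labels number the replicates without saying that each is a separate mouse, so every p-value measures only the spread between these samples. The comparison asks how the bone's transcriptome differs after a distant injury to the brain.

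Total counts ran from 15461528 to 21783534 per library, with 22360 to 23424 genes detected. Any pair of libraries within a group differed beyond sampling noise, so none was merged. All 10 osteoblast, all 10 chondrocyte and all 9 osteoclast marker genes were expressed above the filter, as were 11 erythroid and 12 neutrophil markers, which fits a femur with its marrow. A muscle list of 22 genes was also expressed in full, and its share of all counts was 2.61% to 8.01% in controls and 3.14% to 13.0% after TBI. In whole bone, fewer cells of a type and less RNA per cell cannot be told apart.

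Complexes I and II feed electrons from NADH and succinate into the chain, complex III passes them to cytochrome c, and complex IV hands them to oxygen. Complexes I, III and IV pump protons across the inner mitochondrial membrane, and complex V, ATP synthase, uses that gradient to make ATP. Most subunits are encoded in the nucleus, and a few at the core of complexes I, III, IV and V in mitochondrial DNA. Several complex IV subunits exist as isoforms from separate genes: Cox6a2, Cox7a1 and Cox8b are made in skeletal muscle and heart (Cox7a1 and Cox8b also in brown fat), while Cox6a1, Cox7a2 and Cox8a are made in most tissues.

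The muscle isoforms Cox7a1 and Cox8b and the widely expressed Cox6a1, Cox7a2 and Cox8a, whose levels part company across these libraries, are shown first by their upstream sequences (RefSeq, build GRCm38.p6). Each line gives 150 bases upstream of the gene on the gene's own strand, 5′ to 3′. Capitals mark matches to any of the following motifs, searched on both strands: the NRF1 and MEF2 motifs, given by name, the ETS core CCGGAAG, the core site AAGGTCA of estrogen-related receptors (ERR), the myogenic E-box CAGCTG and the SP1 box GGGCGG.
Cox6a1 (chr5:115348982-115349131, minus strand): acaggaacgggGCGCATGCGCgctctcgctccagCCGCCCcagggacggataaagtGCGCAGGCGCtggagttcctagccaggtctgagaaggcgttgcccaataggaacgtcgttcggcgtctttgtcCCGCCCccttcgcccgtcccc
Cox7a2 (chr9:79759879-79760028, minus strand): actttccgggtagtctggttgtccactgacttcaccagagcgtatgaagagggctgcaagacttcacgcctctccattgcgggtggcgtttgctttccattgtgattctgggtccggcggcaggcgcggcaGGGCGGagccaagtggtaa
Cox8a (chr19:7217617-7217766, minus strand): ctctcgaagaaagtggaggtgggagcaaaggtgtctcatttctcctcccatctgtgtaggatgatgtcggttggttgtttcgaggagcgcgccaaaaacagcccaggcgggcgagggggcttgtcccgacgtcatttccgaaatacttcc
Cox7a1 (chr7:30183994-30184143, plus strand): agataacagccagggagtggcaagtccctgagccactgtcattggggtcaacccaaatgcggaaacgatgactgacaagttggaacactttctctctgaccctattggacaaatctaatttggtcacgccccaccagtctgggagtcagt
Cox8b (chr7:140900447-140900596, minus strand): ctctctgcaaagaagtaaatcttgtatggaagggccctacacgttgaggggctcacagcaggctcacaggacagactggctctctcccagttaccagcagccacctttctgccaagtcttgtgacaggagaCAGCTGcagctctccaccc

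Cox6a1 holds a pair of NRF1 matches and a pair of SP1 boxes that do not overlap each other, Cox7a2 holds 1 SP1 box, and Cox8b holds 1 E-box. Over all 85 promoter windows of 300 bases that matched 80 member genes, 22 (25.9%) held the NRF1 motif, against 4.6% of all 32851 windows in the table. The ETS core was found in 21 member windows (24.7%, against 8.86% of all windows), the ERR site in 8 (9.41%, against 4.72%) and the SP1 box in 40 (47.1%, against 35.7%). The E-box was found in 6 member windows (7.06%, against 16.3% of all windows), among them those of Cox8b and Atp5b, and the MEF2 motif in 0 (against 3.19%). These shares describe letters in a window and were not tested.

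No respiratory chain gene passed the test for a difference between injured and control mice, but nearly all had slightly higher estimates after TBI. Of the 95 members tested, 0 passed an adjusted p of 0.05 in edgeR's quasi-likelihood test, and 0 in DESeq2 and in limma-voom. Over all 17144 genes tested edgeR also called 0 (0.0%), while DESeq2 called 84 of 14821 (0.567%). At an unadjusted p under 0.05, edgeR found 0 members higher and 1 lower, Cox6b2, where the background over all genes is 2.37% higher and 4.97% lower (7.34% in either direction). In the same way, 0 members had every TBI library above every control (background 2.66%) and 1, again Cox6b2, had every TBI library below every control (background 5.38%). The estimate was above 0 for 88 members (54.4% of all genes had one above 0) and below 0 for 7 (45.6% of all genes). The 7 were Cox6b2, Ndufa4l2, Cox6a1, Ndufb2, Cox4i2, Sdhaf1 and Atp5e. The median log2 fold change of the members, TBI minus control, was 0.24 (quartiles 0.17 and 0.33), beside 0.03 over all genes tested.

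The complexes had similar medians. The median log2 fold change was 0.25 for complex I, 0.34 for complex II, 0.31 for complex III, 0.24 for complex IV, 0.22 for complex V and 0.20 for the assembly factors and related proteins. Complex IV had the widest spread, from −0.45 for Cox6b2 to 0.59 for Cox6a2. These medians carry no test, and they turn negative when TBI 3 and TBI 4 are left out, a choice made after seeing the data. Of the 95 members, 89 had their highest level in TBI 3 or TBI 4, so leaving both out lowers the medians by construction. The median over all members is then −0.13, beside −0.03 over all genes tested. The medians of the complexes then run from −0.18 (complex III) to −0.07 (complex IV).

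The libraries within each group differed more than the groups did. Here and below, values of single libraries stand in the order of their replicate numbers. The mean log2 CPM of the members was 5.93, 6.29 and 6.48 in the controls and 5.94, 6.34, 6.72 and 6.78 in the TBI libraries. Control 1 and TBI 1 were the low libraries, TBI 3 and TBI 4 the high ones, and the groups overlapped. Among the 95 members, 88 had their lowest level in control 1 or TBI 1 and 89 had their highest level in TBI 3 or TBI 4. TBI 4 alone was the highest library for 73 members. For 90 of the 95, the difference between the groups was smaller than the range over the 3 controls. The median log2 range was 0.53 over the controls and 0.94 over the TBI libraries, against a median absolute fold change of 0.25. The members that varied least were Cox7a2l, with a log2 range of 0.31 over the 7 libraries, Sdhaf2 with 0.37 and Cox7a2 with 0.52.

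**Figure D1:**
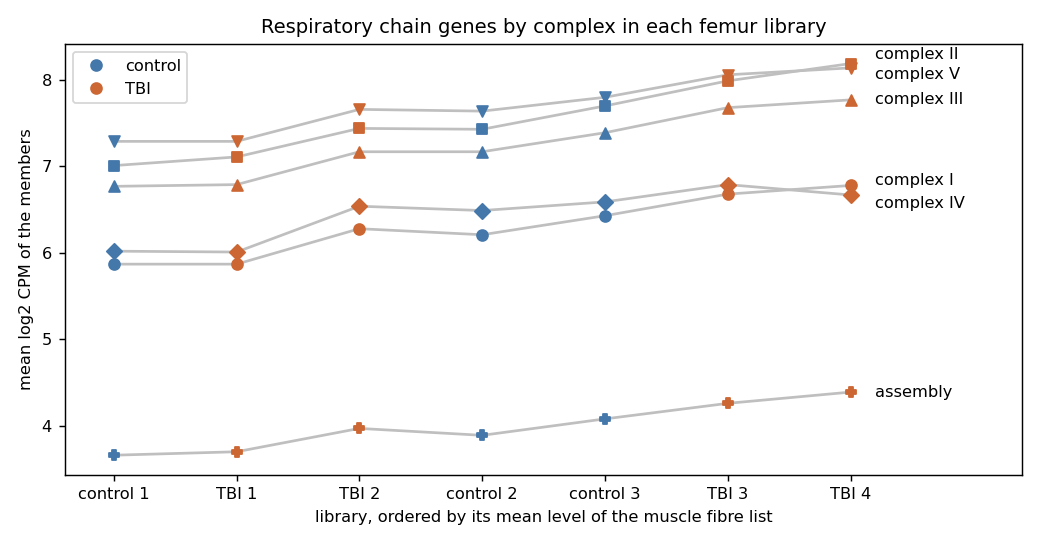
Mean log2 CPM of the tested members of each complex and of the assembly factors (vertical axis) in each of the 7 libraries, ordered from left to right by the mean level of the muscle fibre list; marker shape gives the class and colour the group. Every class is low in control 1 and TBI 1 and high in TBI 3 and TBI 4, and controls and TBI libraries are mixed along the order; over all members the mean runs from 5.93 in control 1 to 6.78 in TBI 4.

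The muscle fibre list moved with the members from library to library. Its 22 genes, among them Acta1 (skeletal muscle actin) and Ckm (muscle creatine kinase), averaged 9.62, 10.57 and 11.30 log2 CPM in the controls and 9.86, 10.48, 11.75 and 12.14 in the TBI libraries. The same pair of libraries was lowest and the same pair highest as for the members. All 22 muscle genes had estimates above 0 (median log2 fold change 0.72), and none passed the test. With the mean level of this list as a covariate in the edgeR fit, the members' median log2 fold change was 0.03, beside 0.02 over all genes. Estimates above 0 were then found for 61 of 95 members (52.5% of all genes). In that fit 0 members passed an adjusted p of 0.05 (0.0% of all genes), and Cox6b2 was the 1 member with an unadjusted p under 0.05 (16.1% of all genes). By complex, the medians with the covariate were 0.02 for complex I, 0.06 for complex II, 0.00 for complex III, 0.03 for complex IV, 0.03 for complex V and 0.04 for the assembly factors.

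**Figure D2:**
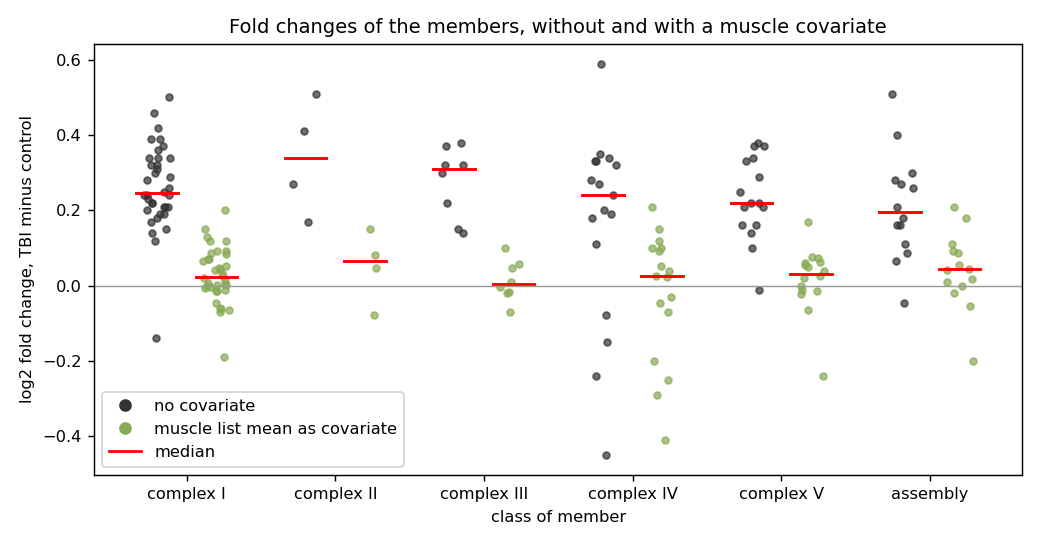
Log2 fold change (TBI minus control, vertical axis) of each tested member by class, from the edgeR fit without a covariate (dark points) and with the mean of the muscle fibre list as a covariate (green points); red lines are medians and points are spread sideways only for legibility. The medians lie between 0.20 and 0.34 without the covariate and between 0.00 and 0.06 with it.

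The levels of other cell type lists are given beside the members. The adipocyte list was higher in TBI 3 and TBI 4 (6.15 and 5.47 mean log2 CPM) than in the other 5 libraries (3.62 to 4.71), with 8 of 8 estimates above 0 and a median log2 fold change of 0.98. The pericyte and smooth muscle list was also highest in TBI 3 (6.08, against 4.87 to 5.68 in the others), with a median of 0.15. The slow muscle list, 8 genes, had a median of 0.14. Like the muscle fibre list it was lowest in control 1 (6.77) and highest in TBI 4 (7.97). Unlike that list, it was higher in control 2 and control 3 (7.62 and 7.45) than in TBI 3 (7.41). Of the brown fat list, 3 of 6 genes passed the filter, with a median of −0.39, and Ucp1, which defines brown fat, measured between 0 and 0.378 CPM in every library. Lower estimates were found for 10 of 11 erythroid genes (median −0.33), 10 of 10 B cell genes (−0.77), 10 of 10 osteoblast genes (−0.72), 10 of 10 chondrocyte genes (−0.70) and 7 of 9 osteoclast genes (−0.51), and higher estimates for 11 of 12 neutrophil genes (0.96). edgeR called no gene of these lists, while DESeq2 called 4 each of the erythroid, osteoblast and chondrocyte genes (0.567% of all genes). The part of these cell types, or of muscle, in the members' levels was not tested. The fit with the muscle list does not test it, because the list itself had estimates above 0 after TBI.

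Complex I takes electrons from NADH through a core of conserved subunits, of which 7 are nuclear-encoded, surrounded by accessory subunits. All 7 core genes had estimates above 0, at a median log2 fold change of 0.32, and the 29 accessory genes had a median of 0.24. Ndufv1 binds NADH and the flavin cofactor. It measured 122.7, 156.3 and 194.5 CPM in the controls and 123.9, 147.0, 212.0 and 235.0 CPM in the TBI libraries. TBI 1 and TBI 2 lay within the range of the controls, and TBI 3 and TBI 4 lay above it. The log2 fold change of Ndufv1 was 0.19 ± 0.25 (SE).

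Among the accessory subunits, Ndufb4 and Ndufc2, both in the membrane arm, had the smallest p-values of complex I. Ndufb4 measured 32.5, 42.7 and 49.3 CPM in the controls and 35.1, 52.1, 67.1 and 73.9 CPM in the TBI libraries. The fitted difference for Ndufb4 was 0.46 ± 0.26 (SE) on the log2 scale, with an edgeR adjusted p of 0.738. Here 3 of the 4 TBI libraries lay above all controls and TBI 1 lay among them. Ndufc2 measured 44.8, 47.9 and 51.8 CPM in the controls and 46.5, 51.2, 64.8 and 67.9 CPM in the TBI libraries, a log2 fold change of 0.26 ± 0.15 (SE). Per length of transcript, Ndufb9 was the most abundant complex I member, at 216.8 CPM per kilobase on average, and it shares 19.5% of its exonic bases with another annotated gene. The estimate for Ndufb9 was 0.32 ± 0.26 (SE). Ndufb2 was the 1 complex I gene with an estimate below 0, at 11.8 ± 1.99 CPM in the controls (SD, n = 3) and 10.7 ± 2.23 CPM in the TBI libraries (SD, n = 4), a difference smaller than either SD.

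Complex II is the smallest complex and the only one that is also an enzyme of the citric acid cycle. It is built from a flavoprotein (Sdha), an iron-sulfur protein (Sdhb) and 2 membrane anchors (Sdhc and Sdhd). Sdha measured 249.2, 311.9 and 406.1 CPM in the controls and 271.7, 334.9, 564.0 and 671.5 CPM in the TBI libraries. TBI 1 and TBI 2 fell within the range of the controls, and TBI 3 and TBI 4 lay above it. The log2 fold change of 0.51 ± 0.33 (SE) was among the largest of all members, yet its edgeR adjusted p was 0.763. Sdhb measured 99.8, 157.7 and 202.8 CPM in the controls and 115.6, 160.8, 232.9 and 304.1 CPM after TBI, with the same overlap and a log2 fold change of 0.41 ± 0.35 (SE). The anchors had smaller estimates, 0.17 ± 0.25 (SE) for Sdhc and 0.27 ± 0.20 (SE) for Sdhd. The catalytic pair thus had a median of 0.46 and the anchors 0.22, which with the muscle covariate were 0.10 and 0.00.

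Complex III carries electrons from ubiquinol to cytochrome c, and all 8 of its members had estimates above 0. Uqcrc1, a core protein, measured 186.1, 241.3 and 304.7 CPM in the controls and 199.6, 272.7, 363.0 and 424.2 CPM in the TBI libraries. TBI 1 and TBI 2 again lay within the controls' range. For Uqcrc1 the log2 fold change was 0.37 ± 0.28 (SE; edgeR adjusted p = 0.767). Uqcrfs1, the Rieske iron-sulfur protein, had a log2 fold change of 0.30 ± 0.29 (SE). Uqcrb, a small subunit near the ubiquinone-binding site, measured 107.4 ± 18.8 CPM in the controls (SD, n = 3) and 139.8 ± 52.4 CPM in the TBI libraries (SD, n = 4). Uqcrh, the hinge protein by which cytochrome c docks, was the most abundant per length at 355.3 CPM per kilobase and had the smallest estimate of the complex, 0.14 ± 0.18 (SE).

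Complex V, ATP synthase, joins a catalytic F1 head to a membrane rotor through a central and a peripheral stalk. Atp5b, the catalytic beta subunit, was the most abundant of all members per length at 675.5 CPM per kilobase, followed by Atp5a1, the alpha subunit, at 430.4. Atp5b measured 933.7, 1079 and 1362 CPM in the controls and 956.6, 1143, 1707 and 1878 CPM in the TBI libraries. TBI 1 and TBI 2 lay within the control range. The log2 fold change of Atp5b was 0.34 ± 0.28 (SE). Atp5c1, the gamma subunit that turns inside the head, had a log2 fold change of 0.37 ± 0.29 (SE). Atp5f1, the b subunit of the peripheral stalk, measured 246.9, 279.9 and 345.9 CPM in the controls and 274.4, 322.1, 426.9 and 487.9 CPM after TBI, a log2 fold change of 0.38 ± 0.23 (SE; edgeR adjusted p = 0.756). Atp5e, the small epsilon subunit of the central stalk, had an estimate of −0.01 ± 0.25 (SE), apart from the other 4 F1 genes, whose estimates ran from 0.22 to 0.37.

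The rotor ring of ATP synthase is made of subunit c, a protein that Atp5g1, Atp5g2 and Atp5g3 all encode with different import sequences. Per length, Atp5g3 gave the largest share of the 3 mRNAs, 45.1% ± 0.897 (SD, n = 3) in controls and 42.8% ± 1.70 (SD, n = 4) after TBI. Atp5g1 gave 31.4% ± 2.59 in controls and 34.1% ± 3.75 after TBI, and Atp5g2 gave 23.5% ± 1.76 and 23.2% ± 2.14. The share of Atp5g1 was lowest in control 1 and TBI 1 (28.4% and 29.3%) and highest in TBI 3 and TBI 4 (36.0% and 37.9%).

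Complex IV, cytochrome c oxidase, holds the tissue-specific isoforms. Its subunits with no isoform partner in this set had estimates like those of the other complexes: Cox5b, at the matrix side of the complex, measured 136.5, 172.9 and 187.4 CPM in the controls and 148.1, 194.3, 235.6 and 261.6 CPM after TBI, a log2 fold change of 0.34 ± 0.21 (SE; edgeR adjusted p = 0.761). Of the TBI libraries, TBI 1 lay among the controls. Cox4i1, the widely expressed form of the largest nuclear-encoded subunit, had the highest level per length in complex IV, at 428.4 CPM per kilobase, and an estimate of 0.18 ± 0.18 (SE).

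Cox6a2, the muscle form of subunit VIa (GRCm38, chr7:128205435-128206387, minus strand), varied more than any other member. It measured 71.3, 158.1 and 224.6 CPM in the controls and 84.3, 161.6, 307.9 and 359.6 CPM in the TBI libraries. The 7 libraries spanned a range in which TBI 1 and TBI 2 lay within the controls and TBI 3 and TBI 4 above them. Its log2 fold change of 0.59 ± 0.52 (SE) was the largest of all members, with an edgeR adjusted p of 0.774, and with the muscle covariate it was 0.02 ± 0.12 (SE). With 1 library left out it ran from 0.25 (without control 1) to 0.99 (without control 3), and it was not the largest of the members in each of these fits (without control 1, Ndufa12 was at 0.38 and Sdha at 0.36). Cox6a2 overlaps Itgad on the opposite strand over 10.3% of its exonic bases. Cox6a1, the widely expressed form (chr5:115345642-115348981, minus strand), showed no such order: it measured 131.4, 118.2 and 105.3 CPM in the controls and 105.6, 136.5, 105.2 and 79.0 CPM after TBI. TBI 4, where Cox6a2 was highest, had the lowest Cox6a1. The log2 fold change of Cox6a1 was −0.15 ± 0.18 (SE).

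Cox7a1, the muscle form of subunit VIIa (chr7:30184144-30186078, plus strand), measured 28.5, 56.2 and 70.9 CPM in the controls and 24.4, 48.8, 80.8 and 96.3 CPM in the TBI libraries. TBI 1 lay below all controls and TBI 3 and TBI 4 above them. For Cox7a1 the log2 fold change was 0.27 ± 0.46 (SE), and −0.25 ± 0.13 (SE) with the muscle covariate. Its estimate was also below 0 without control 1 or without TBI 4 (−0.023 and −0.014). Cox7a2, the widely expressed form (chr9:79755361-79759878, minus strand), measured 79.7, 86.8 and 87.0 CPM in the controls and 75.7, 95.6, 108.7 and 107.9 CPM after TBI, a log2 fold change of 0.20 ± 0.15 (SE). The spread of Cox7a2 was far smaller than that of Cox7a1.

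Cox8b, the muscle form of subunit VIII (chr7:140898945-140900446, minus strand), measured 26.7, 53.7 and 73.9 CPM in the controls and 23.1, 51.3, 94.4 and 89.0 CPM after TBI, with a log2 fold change of 0.33 ± 0.49 (SE) and −0.20 ± 0.16 (SE) with the muscle covariate. Cox8a, its widely expressed partner (chr19:7215153-7217616, minus strand), measured 93.8, 81.9 and 72.7 CPM in the controls and 89.7, 109.7, 90.9 and 66.2 CPM after TBI, a log2 fold change of 0.11 ± 0.18 (SE). As with subunit VIa, TBI 4 was the lowest library for the widely expressed form.

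**Figure D3:**
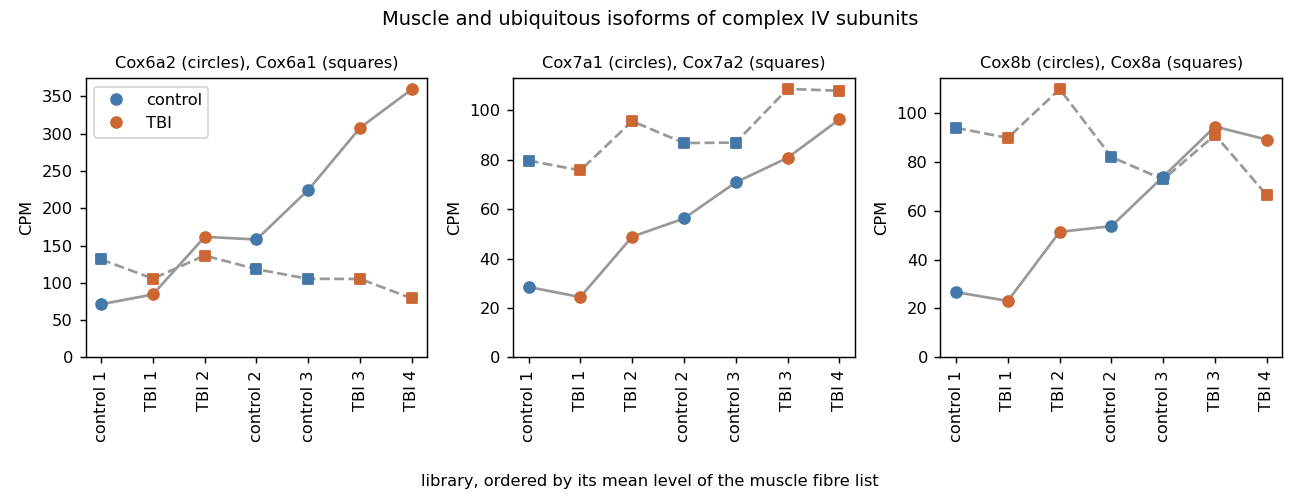
CPM (vertical axis) of the muscle isoform (circles, solid line) and of the widely expressed isoform (squares, dashed line) of 3 complex IV subunits in each library, ordered by the mean level of the muscle fibre list; colour gives the group. Cox6a2 runs from 71.3 CPM in control 1 to 359.6 CPM in TBI 4 while Cox6a1 stays between 79.0 and 136.5 CPM.

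The balance within each pair was compared as a log2 ratio of counts. The groups were tested with a two-sided exact permutation test over all 35 ways to label 3 of the 7 libraries as controls. So few splits limit how small p can be. The ratio of Cox6a2 to Cox6a1 was −0.88, 0.42 and 1.09 in the controls and −0.32, 0.24, 1.55 and 2.19 in the TBI libraries. The groups overlapped, and the TBI mean was higher by 0.70 (exact p = 0.429, 0.857 adjusted over the 6 pairs). Per length, Cox6a2 made up between 31.3% (control 1) and 79.3% (TBI 4) of the subunit VIa mRNA. The ratio of Cox7a1 to Cox7a2 had the same mean in both groups, −0.80 ± 0.613 over the controls (SD, n = 3) and −0.80 ± 0.649 over the TBI libraries (SD, n = 4), and the share of Cox7a1 per length ran from 35.1% (TBI 1) to 59.9% (TBI 4). The ratio of Cox8b to Cox8a was −0.80 ± 0.933 over the controls (SD, n = 3) and −0.64 ± 1.09 over the TBI libraries (SD, n = 4), with exact p = 0.886, and the share of Cox8b per length ran from 28.2% (TBI 1) to 67.2% (TBI 4).

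Across the 7 libraries, the 3 ratios rose with the muscle fibre list. Cox6a2, Cox7a1 and Cox8b are themselves muscle isoforms, so a rise with this list could be foreseen from the choice of genes. The p-values below therefore test no open question. Between the list's mean level and the ratio of Cox6a2 to Cox6a1, Pearson's r was 0.995 (exact permutation p = 0.000198, 0.00119 adjusted over the 6 pairs; the smallest the permutations can give) and Spearman's rho was 1.00 (exact p = 0.000397, adjusted 0.00238, also the smallest possible). For Cox7a1 to Cox7a2, r was 0.929 (exact p = 0.00456, adjusted 0.00912) and rho 0.929 (exact p = 0.00675, adjusted 0.0135). For Cox8b to Cox8a, r was 0.968 (exact p = 0.000992, adjusted 0.00298) and rho 0.964 (exact p = 0.00278, adjusted 0.00834). Without TBI 3 and TBI 4, the libraries farthest from the median of the list, r was 0.989, 0.954 and 0.968 for the 3 pairs in the same order. Each control and TBI group is too small for a correlation of its own.

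**Figure D4:**
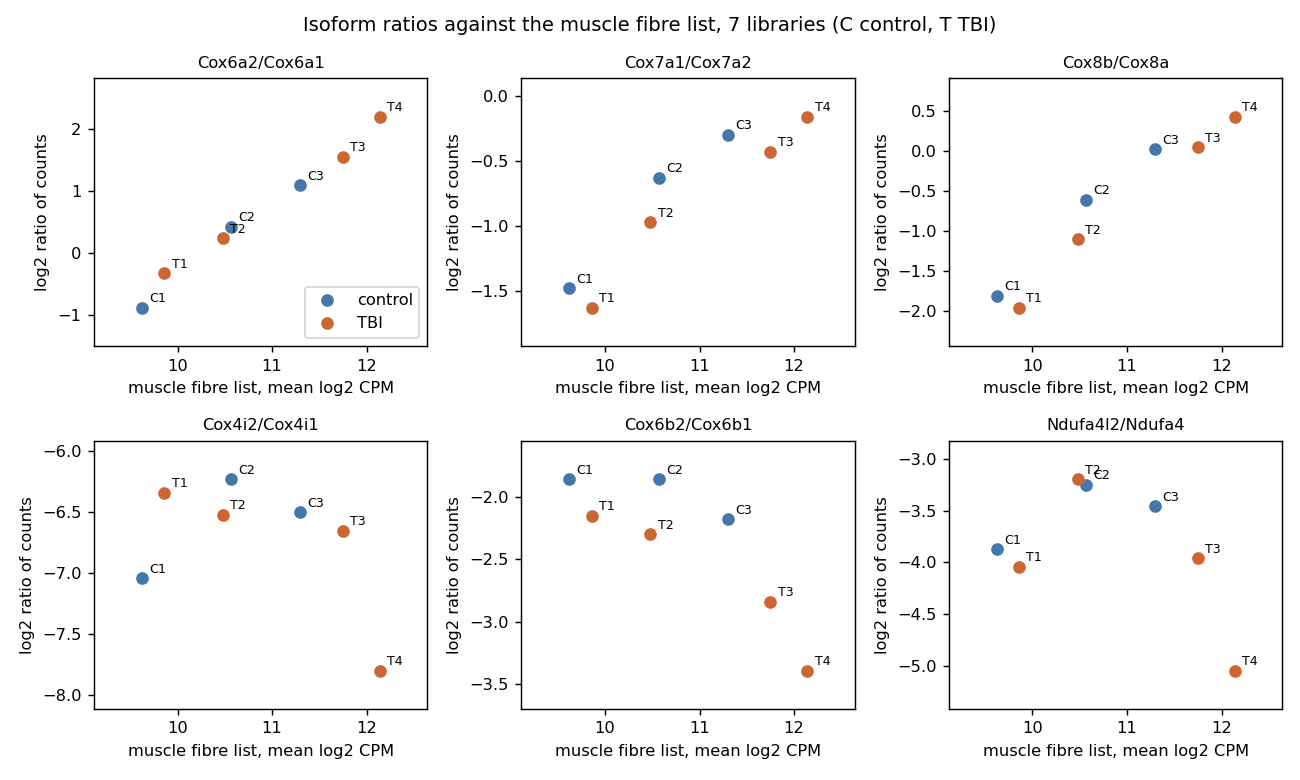
Log2 ratio of counts within each of 6 isoform pairs (vertical axes) against the mean log2 CPM of the muscle fibre list (horizontal axes), 1 point per library (C control, T TBI). In the upper row, the 3 pairs with a muscle isoform rise along the list (Pearson's r of 0.929 to 0.995 over 7 libraries), while in the lower row TBI 4 is the lowest point in each panel.

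The other 3 pairs did not follow the muscle list in this way. Cox6b2 is known as the testis form of subunit VIb (chr7:4751792-4753094, minus strand). It measured 36.9, 46.7 and 42.1 CPM in the controls and 31.2, 36.9, 31.8 and 22.4 CPM in the TBI libraries. All TBI libraries lay below all controls, but by a very thin margin, 36.87 CPM in TBI 2 against 36.92 CPM in control 1, and under RLE scaling the groups overlapped. Its log2 fold change was −0.45 ± 0.17 (SE; edgeR unadjusted p = 0.0285, adjusted p = 0.633), and −0.41 ± 0.16 (SE) with the muscle covariate. Cox6b1, the widely expressed form, measured 134.5, 170.2 and 190.9 CPM in the controls and 138.5, 181.3, 228.2 and 234.7 CPM after TBI, a log2 fold change of 0.24 ± 0.21 (SE). The log2 ratio of Cox6b2 to Cox6b1 was lower after TBI by a difference of −0.70 (exact permutation p = 0.143, 0.857 adjusted over the 6 pairs). Its r with the muscle list was −0.842 (exact p = 0.0135, adjusted 0.0203) and its rho −0.714 (exact p = 0.0881, adjusted 0.132), and without TBI 3 and TBI 4 r was −0.386, so the relation rests on those 2 libraries.

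Cox4i2, the isoform of subunit IV expressed in lung and in vascular smooth muscle, was the lowest of the expressed members. It measured 1.94, 4.04 and 3.60 CPM in the controls and 3.09, 3.62, 3.58 and 1.74 CPM after TBI, between 0.45% and 1.33% of the subunit IV mRNA per length. Control 1 and TBI 4 were the low libraries. The log2 fold change was −0.08 ± 0.34 (SE), and the ratio to Cox4i1 differed by −0.24 (exact permutation p = 0.686). Ndufa4l2, a hypoxia-induced paralog of Ndufa4, measured 8.94, 17.5 and 17.0 CPM in the controls and 7.73, 18.4, 15.2 and 7.54 CPM after TBI. Its low libraries were control 1, TBI 1 and TBI 4, so the groups overlapped, and its log2 fold change was −0.24 ± 0.37 (SE). Ndufa4 measured 161.6 ± 28.7 CPM in the controls (SD, n = 3) and 195.8 ± 57.4 CPM in the TBI libraries (SD, n = 4). The log2 ratio of Ndufa4l2 to Ndufa4 differed by −0.53 (exact permutation p = 0.314, 0.857 adjusted). With the muscle list, r was −0.468 (exact p = 0.30, adjusted 0.305) for Cox4i2 to Cox4i1 and −0.46 (exact p = 0.305, adjusted 0.305) for Ndufa4l2 to Ndufa4, with rho of −0.286 (exact p = 0.556, adjusted 0.556) and −0.321 (exact p = 0.498, adjusted 0.556). Without TBI 3 and TBI 4 these r were 0.459 and 0.678, the opposite sign.

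**Figure D5:**
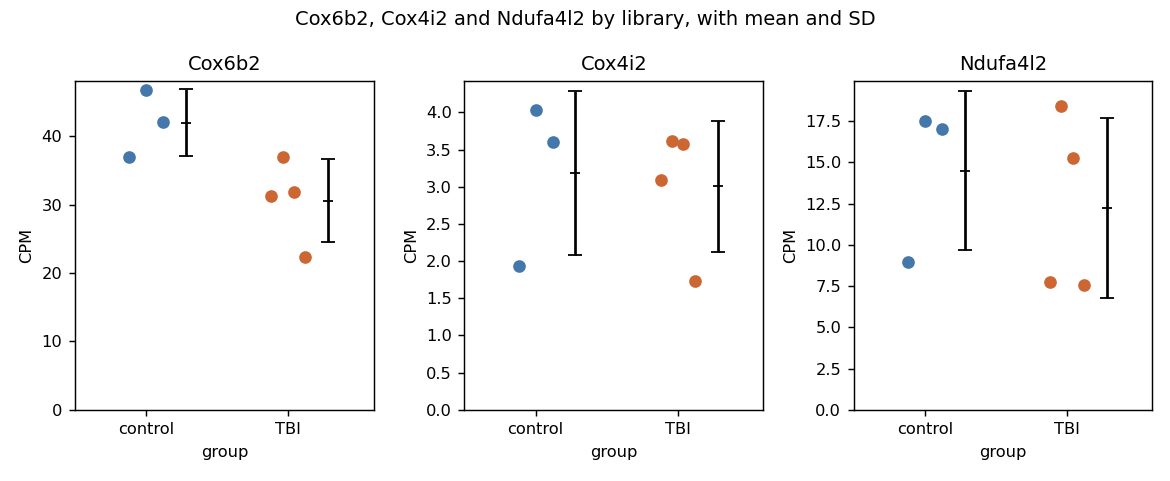
CPM of Cox6b2, Cox4i2 and Ndufa4l2 (vertical axes, from 0) in each library by group, with the mean and SD of the 3 controls and 4 TBI libraries beside the points. The TBI libraries of Cox6b2 lie between 22.4 and 36.9 CPM and its controls between 36.9 and 46.7 CPM, and for Cox4i2 and Ndufa4l2 the groups overlap.

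Of the 14 assembly factors and related proteins, 13 had estimates above 0 and none passed the test. Ndufaf2, a chaperone of late complex I assembly, measured 5.73, 7.57 and 7.98 CPM in the controls and 7.91, 8.60, 8.30 and 9.64 CPM after TBI, a log2 fold change of 0.28 ± 0.17 (SE; edgeR adjusted p = 0.761). TBI 1 lay just under control 3, and 65.6% of the exonic bases of Ndufaf2 are shared with B230220B15Rik on the opposite strand. Ndufaf5, which modifies the core subunit Ndufs7, measured 10.2, 12.7 and 17.99 CPM in the controls and 10.3, 15.0, 22.8 and 29.8 CPM after TBI, a log2 fold change of 0.51 ± 0.36 (SE). Cox7a2l, which joins complexes III and IV into supercomplexes, was the most abundant of the class per length (95.4 CPM per kilobase) and the most even member of all. It measured 98.3 ± 7.54 CPM in the controls (SD, n = 3) and 105.9 ± 6.68 CPM in the TBI libraries (SD, n = 4).

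Genes of the same machinery that the naming rule leaves out were read from lists. The 13 transcripts of the mitochondrial genome all had estimates above 0, at a median log2 fold change of 0.38, and with the muscle covariate the median was −0.05. Among them mt-Atp8, a small subunit of ATP synthase, measured 46.8, 49.4 and 34.2 CPM in the controls and 61.1, 63.8, 149.9 and 138.0 CPM in the TBI libraries. All TBI libraries of mt-Atp8 lay above all controls, which held for only 1 of the 13 transcripts (2.66% of all genes). Its log2 fold change was 1.25 ± 0.35 (SE; edgeR adjusted p = 0.483) and 0.89 with the covariate. The reading frame of mt-Atp8 overlaps that of mt-Atp6, whose own estimate was 0.33 ± 0.33 (SE), so how reads were divided between them is uncertain. mt-Nd3, a core complex I subunit, had an estimate of 0.55 ± 0.38 (SE). Of the 4 measured genes of the cytochromes c and other-named subunits, 3 had estimates above 0, and Cycs, the cytochrome c that shuttles between complexes III and IV, measured 104.9 ± 18.04 CPM in the controls (SD, n = 3) and 142.7 ± 53.1 CPM in the TBI libraries (SD, n = 4). Usmg5, a small ATP synthase subunit, had an estimate of 0.30 ± 0.22 (SE).

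Of the 36 tested assembly factors with other names, 34 had estimates above 0 (median 0.20) and 2 below. No gene of this list passed the adjusted test, 4 had an unadjusted edgeR p under 0.05, all with estimates above 0 (2.37% of all genes), and the same 4 had every TBI library above every control (2.66% of all genes). With the muscle covariate the median of the list was 0.07. Cox15, which makes the heme a of complex IV, measured 30.1, 29.6 and 35.2 CPM in the controls and 37.1, 39.6, 39.5 and 40.5 CPM after TBI. Its log2 fold change was 0.31 ± 0.11 (SE; edgeR unadjusted p = 0.020, adjusted p = 0.609) and 0.27 with the muscle covariate. Coa5, a complex IV assembly factor, measured 104.6, 98.9 and 107.9 CPM in the controls and 114.2, 118.4, 158.1 and 164.5 CPM after TBI, a log2 fold change of 0.42 ± 0.16 (SE; unadjusted p = 0.0295, adjusted p = 0.637). The other 2, singled out after their values were seen, were Sco1, a copper chaperone of complex IV (0.44 ± 0.18, SE), and Nubpl, an iron-sulfur assembly factor of complex I (0.50 ± 0.22, SE).

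All 18 genes of the citric acid cycle list, which supplies the NADH and succinate that complexes I and II oxidise, had estimates above 0, with a median of 0.39 (0.05 with the muscle covariate). Pdhx and Dld, both components of the pyruvate dehydrogenase complex, had estimates of 0.47 ± 0.24 (SE) and 0.41 ± 0.23 (SE), and neither passed the test. Of 16 regulators of respiratory genes, 12 had estimates above 0 (median 0.23). Pparg, the nuclear receptor of fat cell formation, measured 7.81, 7.12 and 7.14 CPM in the controls and 8.65, 8.22, 10.9 and 9.96 CPM after TBI, with all TBI libraries above all controls (edgeR adjusted p = 0.683). Pprc1, a coactivator of the PGC-1 family, measured 99.7, 99.3 and 93.2 CPM in the controls and 76.9, 86.6, 89.9 and 66.4 CPM after TBI, with all TBI libraries below all controls. Its log2 fold change was −0.29 ± 0.13 (SE; edgeR adjusted p = 0.684). Of the 16 regulators, Pparg was the 1 with every TBI library above every control (2.66% of all genes). Pprc1 was the 1 with every TBI library below every control (5.38% of all genes).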

How the data were processed

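Stranded mRNA libraries of 7 mouse femurs were sequenced, per the labels' protocols. The authors deposited raw read counts per Ensembl gene, which were used as deposited; STAR, DESeq and GRCm38 stand in the submitters' processing notes, without versions or roles. How reads were counted, and whether by strand, is not stated in these sources, so the 35 members whose exons overlap another gene, and those related to the 12 processed pseudogenes with matching symbols, are uncertain. A table of normalized values was not used.

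GENCODE M21 matched 49412 of 49671 identifiers. Counts were filtered with filterByExpr (17144 genes left), scaled by TMM and tested with edgeR's quasi-likelihood F-test (edgeR 4.0.16, R 4.3.3), Benjamini-Hochberg adjusted over all genes; DESeq2 1.42.0 and limma-voom (limma 3.58.1) were alternatives. Log ratios used a prior of 0.5 counts. Levels per kilobase used the principal transcript. On simulated counts for this comparison (16741 genes), the edgeR test found 2 of 67 genes with a built-in 1.5-fold change, 27 of 67 at 2-fold and 60 of 66 at 4-fold. DESeq2 found 12, 53 and 64 of these, and edgeR also called 7 genes without a built-in change. Each gene was simulated independently, without the shared shifts between libraries seen here.

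The naming rule uses no measured value, but the set of members, the gene lists and the tests were proposed with earlier results of these data known. Named genes were every member of an isoform pair, per class the 2 smallest p-values and the highest level per length, the 2 largest and 2 most negative fold changes, and the 2 smallest p-values of each list that is no cell type. Other genes given with values, such as Ndufv1, Ndufb2, Sdhc, Uqcrfs1, Atp5a1, Atp5e, Atp5g1 to Atp5g3 and mt-Atp6, fall outside that rule and were chosen after their values were seen. Other scalings, filters, a replicate block, a muscle covariate and left-out libraries were tried as alternatives.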

Additional observations from a re-analysis of the deposited data

How the results depend on the processing

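The count of members past the threshold was 0 under every alternative run (other scalings, filters and tools, a threshold of 0.1, the replicate block, the muscle covariate and every library left out). In the self-test, whose genes were drawn independently, edgeR and DESeq2 missed most 1.5-fold changes at this size. Over all genes, DESeq2 called 84. Cox6b2 no longer had separated groups under RLE scaling (0 members lower, beside 5.37% of all genes). With 1 library left out, between 0 and 12 members had separated groups above the controls. There were 12 without TBI 1 (5.6% of all genes), 3 without control 3 (5.7% of all genes) and 1 without control 2 (4.19% of all genes). Between 0 and 2 members had separated groups below the controls. There were 0 without control 2 (7.27% of all genes) or TBI 1 (9.17%), and 2 without TBI 2 (8.7%). Leaving out 1 library moved the median log2 fold change between 0.13 and 0.38 for all members, 0.13 and 0.39 for complex I, 0.14 and 0.52 for II, 0.11 and 0.47 for III, 0.12 and 0.37 for IV, 0.10 and 0.36 for V, and 0.10 and 0.28 for the assembly factors.

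Without TBI 3 and TBI 4, a choice made after seeing the data, the medians were −0.13 for all members, −0.13 for complex I, −0.15 for II, −0.18 for III, −0.13 for V and −0.11 for the assembly factors. The ratio differences were then −0.25 for Cox6a2/Cox6a1, −0.50 for Cox7a1/Cox7a2, −0.73 for Cox8b/Cox8a and 0.16 for Cox4i2/Cox4i1. With 1 library left out, the differences ran from 0.16 to 1.15 for Cox6a2/Cox6a1, −0.34 to 0.28 for Cox7a1/Cox7a2, −0.35 to 0.59 for Cox8b/Cox8a, −0.46 to 0.084 for Cox4i2/Cox4i1, −0.87 to −0.46 for Cox6b2/Cox6b1 and −0.82 to −0.21 for Ndufa4l2/Ndufa4. In the fit without TBI 3 and TBI 4, 24 of 38 named genes changed sign: Cox6a2 −0.33, Cox6a1 0.01, Cox7a1 −0.53, Cox7a2 −0.004, Cox8b −0.49, Cox4i2 0.057, Cox4i1 −0.042, Cox6b1 −0.072, Ndufa4 −0.15, Ndufaf5 −0.14, Ndufc2 −0.004, Ndufb9 −0.11, Sdha −0.11, Sdhd −0.059, Sdhb −0.18, Uqcrc1 −0.074, Uqcrb −0.20, Uqcrh −0.15, Atp5c1 −0.13, Atp5b −0.13, Dld −0.034, Cycs −0.10, Usmg5 −0.066 and mt-Nd3 −0.18. With the muscle covariate Cox7a1 was −0.25, Cox8b −0.20 and Uqcrh −0.018. With 1 library left out, Cox7a1 ran from −0.023 to 0.56, Cox8a from −0.019 to 0.23 and Cox4i2 from −0.34 to 0.12. The cause of these changes was not tested.

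The labels number replicates 1 to 3 in both groups, and same-numbered libraries correlated at 0.507, −0.019 and 0.293, and not every library correlated best with its own number, so a pairing was not established. With that number as a replicate block, 0 genes passed, the members' median was 0.11 and Cox7a1 (−0.075) and Cox4i2 (0.16) changed sign. TBI 4 has no control of the same number, so in that fit it adds nothing to the group difference. In the fit without TBI 4 and without a block, the members' median was 0.13.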
